A study of Mus musculus with 8 samples.

Results

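The genes described here form the switch that decides whether a cell leaves G1 of the cell cycle: the D-type cyclins Ccnd1, Ccnd2 and Ccnd3, their kinases Cdk4 and Cdk6, the Cdk inhibitors Cdkn1b (p27), Cdkn2a (p16Ink4a and p19Arf), Cdkn2b (p15) and Cdkn2c (p18), and the retinoblastoma gene Rb1. They were chosen by symbol. All 10 were found among the 23304 gene symbols of each count table, and 8 had enough reads to be tested. Cdkn2a and Cdkn2b had 1 and 2 reads over all 8 libraries together and were not tested.

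Mitogens induce D-type cyclins, which bind Cdk4 or Cdk6 and start to phosphorylate Rb. Phosphorylated Rb releases E2F transcription factors, and these switch on cyclin E, cyclin A and the genes of DNA replication. The Ink4 inhibitors among these genes (Cdkn2a, Cdkn2b, Cdkn2c) bind Cdk4 and Cdk6 and keep cyclin D off them. By contrast, p27 binds cyclin-Cdk2 complexes and can also be held by cyclin D-Cdk complexes. In cultured mouse fibroblasts, products of Cdkn2a bring on senescence, and immortal lines often lack either that locus or p53.

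RNA was sequenced from NIH3T3 cells, an immortal line of mouse fibroblasts labelled as of Swiss albino strain. The labels give 4 groups of 2 libraries: WT cells without treatment (WT 0 h), ZMYND11 KO cells made with CRISPR and left without treatment (KO 0 h), and both kinds of cell after 2 h with recombinant mouse IFNβ at 100 units/ml (WT 2 h, KO 2 h). All cells were grown in DMEM with 10% donor bovine serum. The labels do not give the guide, the number of KO clones or whether replicates were separate cultures, and the extraction text speaks of MEFs where the source field says NIH3T3. The p-values below therefore measure only the spread between these libraries, which may be technical.

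Of the 4 groups, those labelled KO 0 h and WT 2 h went against their labels. Zmynd11, the targeted gene, ranged from 120.4 to 137 CPM over the 4 libraries labelled 0 h and from 3.18 to 4.69 CPM over the 4 labelled 2 h (CPM are counts scaled to library size). It was thus low with the 2 h label, not with the KO label. The interferon-induced gene Ifit1 followed the genotype label instead, with 196 to 396 CPM over the 4 libraries labelled KO and 1.22 to 3.95 CPM over the 4 labelled WT. In what follows 0 h, 2 h, WT and KO are labels only. Each comparison of 2 h with 0 h set libraries low in Zmynd11 against libraries high in it, and each comparison of KO with WT set libraries high in Ifit1 against libraries low in it. Whether the labels of KO 0 h and WT 2 h were exchanged was not tested. If they were, the first kind of comparison would be one of genotype and the second one of interferon treatment. Each library held between 13671013 and 21299120 gene reads. In 7 of them 14847 to 15945 genes had a read, and the library labelled KO 0 h replicate 2 stood apart with 17498. All 9 fibroblast markers had at least 10 reads in every library. Their summed level was 41280 to 46075 CPM in the libraries labelled 0 h and 18606 to 20544 CPM in those labelled 2 h, but they did not move as one. In edgeR 7 of 9 were called lower at 2 h in WT and 6 of 9 in KO, such as Col1a1 (-3.50 and -3.26). Of all tested genes 31.1% and 31.2% were called lower. Thy1 was called higher (0.27 and 0.37), and Fn1 was called in neither (-0.14 and 0.08). Summed markers of epithelium (2.48 to 5.15 CPM), of blood and macrophages (5.98 to 12.7 CPM, 2 of 4 markers listed), of endothelium (1.17 to 3.07 CPM) and of adipocytes (0 to 0.267 CPM) were low in all libraries. Those of skeletal muscle went from 1.94 to 2.60 CPM at 0 h to 13.7 to 16.4 CPM at 2 h, nearly all of it Des, with Myod1 at most 0.350 CPM. The part of these shifts in the results below was not tested. In bulk RNA fewer cells of a type and less RNA per cell cannot be told apart.

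Between the labelled times the genes of the G1 switch moved in both directions. In both genotype labels Ccnd2, Cdkn1b, Ccnd1 and Rb1 were higher at 2 h, and Cdkn2c and Cdk6 were lower. Ccnd2 changed most, 2.19-fold in WT and 2.22-fold in KO, and Cdkn2c fell to 0.554 and 0.535 of its 0 h level. With edgeR, 7 of the 8 tested genes were called in WT (4 higher, 3 lower) and 7 in KO (5 higher, 2 lower), at an adjusted p below 0.05 over all genes. The background was high: 61.2% of all 12807 tested genes were called in WT (30.1% higher, 31.1% lower) and 61.1% in KO (30% higher, 31.2% lower). A call between these labels was thus the rule among all genes, and nothing is read from the count alone. The groups labelled 0 h and 2 h did not overlap for 7 of the 8 genes in WT (82.6% of all genes) and for 7 of 8 in KO (77.5%). The median absolute log2 fold change of the 8 genes was 0.71 in WT and 0.48 in KO, beside 0.46 and 0.47 over all genes. Between the labelled genotypes none of the 8 was called by edgeR at 0 h or 2 h (3.92% and 1.6% of all genes).

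**Figure D1:**
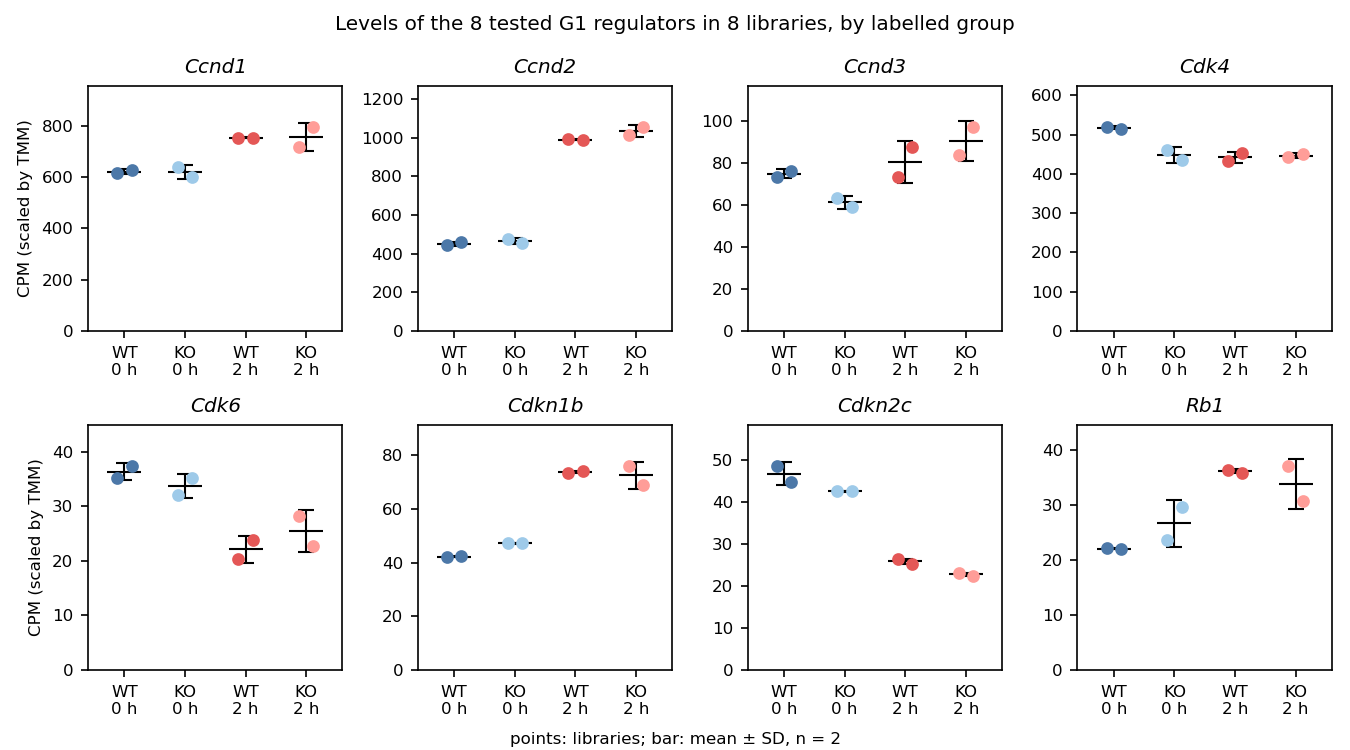
Level of each tested gene in every library, in CPM, with 1 panel per gene, 1 point per library, bars for mean ± SD and the 4 labelled groups along the horizontal axis. Ccnd2, Ccnd1, Cdkn1b and Rb1 sit higher in both groups labelled 2 h, and Cdk6 and Cdkn2c sit lower. Ccnd3 sits higher at 2 h in KO and overlaps in WT, and Cdk4 sits lower at 2 h in WT and overlaps in KO.

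Ccnd2 (chr6:127125162-127152193, minus strand; coordinates of genes are from GENCODE on GRCm38, not the build of the counts) encodes cyclin D2. It was at 445 and 459 CPM in the pair labelled WT 0 h, 477 and 456 in KO 0 h, 992 and 986 in WT 2 h and 1011 and 1055 in KO 2 h. The 4 libraries labelled 2 h all lay far above the 4 labelled 0 h, and the genotype labels differed little. The log2 fold change from 0 h to 2 h was 1.13 in WT (SE 0.07, edgeR adjusted p = 6.89e-12) and 1.15 in KO (SE 0.07, adjusted p = 5.44e-12). No other gene of the switch moved by more.

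Ccnd1 (chr7:144929931-144939925, minus strand) encodes cyclin D1, the D-type cyclin best known as a target of Ras and mitogen signalling in fibroblasts. Its level was 615 and 627 CPM in the pair labelled WT 0 h, 638 and 601 in KO 0 h, 754 and 752 in WT 2 h and 718 and 796 in KO 2 h. Both groups labelled 2 h lay above both labelled 0 h without overlap, but by much less than for Ccnd2. The log2 fold change was 0.28 in WT (SE 0.07, edgeR adjusted p = 0.00254) and 0.29 in KO (SE 0.07, adjusted p = 0.00185). Without the library labelled WT 0 h replicate 1 the WT call was lost in edgeR (adjusted p = 0.0638).

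Ccnd3 (chr17:47505051-47599691, plus strand), the cyclin D3 gene, was the least abundant of these cyclins. It was at 73.1 and 76.2 CPM in the pair labelled WT 0 h, 63.4 and 58.9 in KO 0 h, 73.2 and 87.3 in WT 2 h and 83.7 and 97.1 in KO 2 h. The WT groups overlapped, whereas both libraries labelled KO 2 h lay above both labelled KO 0 h. The log2 fold change was 0.56 in KO (SE 0.10, edgeR adjusted p = 3.18e-05) and 0.10 in WT (SE 0.10, adjusted p = 0.36). The difference between the genotype labels was 0.46 (SE 0.14) with an unadjusted p of 0.00293, and it was not called in edgeR after adjustment (adjusted p = 0.208). With library size alone as the scaling, the WT change was called too (0.24, edgeR adjusted p = 0.0331).

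Among the D-type cyclins as a group, reads shifted from Ccnd1 to Ccnd2. In the libraries labelled 0 h, Ccnd1 took 54.1 ± 0.223% (WT) and 54.0 ± 0.193% (KO) of the reads of the 3 genes, and Ccnd2 took 39.4 ± 0.155% and 40.7 ± 0.265% (mean ± SD, n = 2 each). At 2 h Ccnd1 took 41.3 ± 0.181% and 40.2 ± 0.879%, and Ccnd2 took 54.3 ± 0.358% and 55.0 ± 1.14%. Ccnd2 thus passed Ccnd1 in reads in every library labelled 2 h and in none labelled 0 h. Ccnd3 held 4.02 to 6.55% in single libraries. Ccnd2 reads per Ccnd1 read, which do not depend on library scaling, ran from 0.724 to 0.759 at 0 h and from 1.31 to 1.41 at 2 h. The summed level of the 3 genes ran from 1116 to 1178 CPM over the 4 libraries labelled 0 h and from 1813 to 1948 CPM over the 4 labelled 2 h. With 2 libraries a group an exact two-sided permutation test of these shares and sums cannot go below p = 0.333, so they are given as values.

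**Figure D2:**
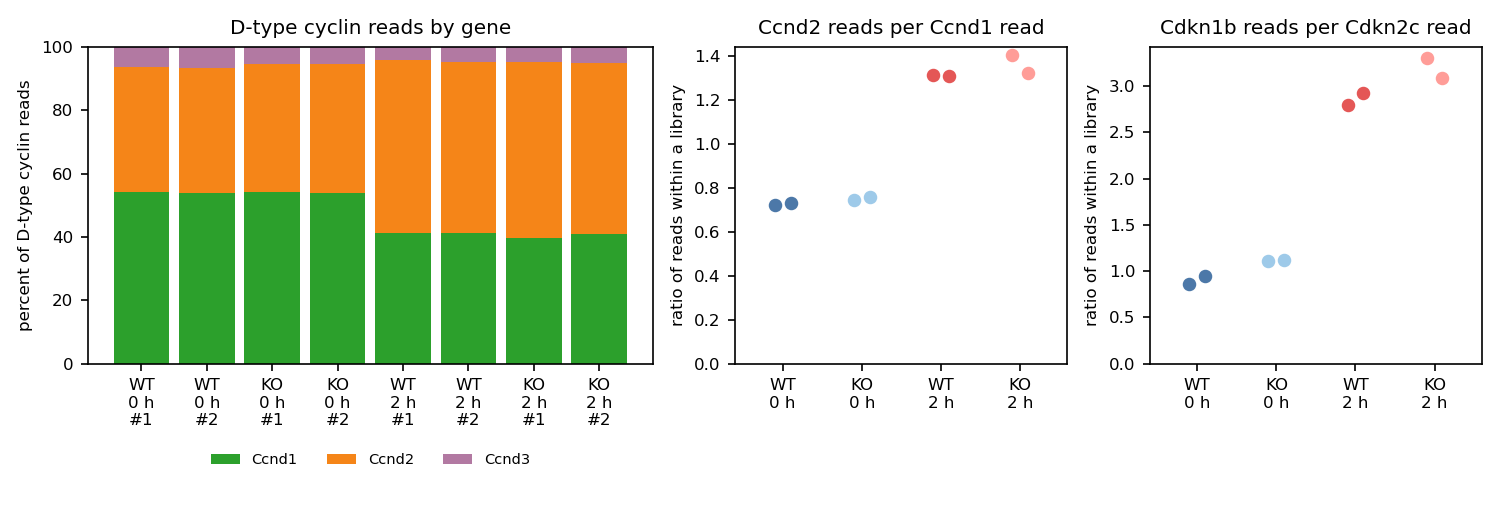
Left, percent of D-type cyclin reads from each gene in every library; middle and right, Ccnd2 reads per Ccnd1 read and Cdkn1b reads per Cdkn2c read, 1 point per library, by labelled group. Both ratios are higher in all 4 libraries labelled 2 h (1.31 to 1.41 and 2.79 to 3.30) than in all 4 labelled 0 h (0.724 to 0.759 and 0.866 to 1.12).

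Ccnd2 has 6711 bases of exon and Ccnd1 3740, and the order per length was another. Per kilobase of exon, Ccnd1 stood at 166 CPM in WT 0 h and 201 in WT 2 h, and Ccnd2 at 67.4 and 147. By this measure, which takes the whole annotated exon length, Ccnd1 stayed above Ccnd2 in all groups. The ratio was 2.47 and 2.38 at 0 h and 1.37 and 1.31 at 2 h (WT, then KO). Ccnd3 was at 25.0 to 36.9 CPM per kilobase over the 4 groups.

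The 2 kinases differed widely in level. Cdk4 (chr10) was the most abundant gene of the switch per length, at 252 CPM per kilobase in WT 0 h and 215 to 218 in the other groups, and Cdk6 (chr5) was the least abundant of those tested, at 1.92 to 3.15. Per kilobase of annotated exon Cdk4 stood at 74.7 to 112 times Cdk6, and in reads alone at 12.3 to 21.2 times. The per-length ratio rests on annotated exon lengths of 2053 bases for Cdk4 and 11525 for Cdk6. Which transcript ends these cells use was not tested. Both kinases bind the D-type cyclins, and Cdk6 is best known from blood cells. The Cdk4 promoter is shown because its window, 250 bases before to 50 bases after the start, holds 4 copies of the E-box CACGTG (capitals), a sequence bound by Myc and related factors, and Cdk4 is a textbook Myc target. It lies at chr10:127063285-127063584 on the plus strand.
Cdk4: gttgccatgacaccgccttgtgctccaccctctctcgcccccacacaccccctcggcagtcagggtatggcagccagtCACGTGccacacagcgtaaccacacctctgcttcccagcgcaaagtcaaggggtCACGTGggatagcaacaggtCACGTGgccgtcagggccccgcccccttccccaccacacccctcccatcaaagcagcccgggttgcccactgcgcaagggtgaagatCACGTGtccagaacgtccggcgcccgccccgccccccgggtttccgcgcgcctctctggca
The copies start at positions -172, -118, -98 and -11 from the start site. At least 1 copy is found in 7.15% of the 32841 RefSeq promoter windows of this length (GRCm38.p6), and at least 4 in 8 of them (0.0244%). A match is a description of the letters only.

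Cdk4 was at 519.7 and 514 CPM in the pair labelled WT 0 h, 461 and 434 in KO 0 h, 432 and 452 in WT 2 h and 442 and 450.5 in KO 2 h. The WT 0 h libraries were the highest, and the other 6 lay within one narrow band. The log2 fold change from 0 h to 2 h was -0.23 in WT (SE 0.07, edgeR adjusted p = 0.00882) and -0.01 in KO (SE 0.07, adjusted p = 0.952). The WT call was not firm. It was lost in edgeR with library size alone as the scaling (-0.09, adjusted p = 0.279), and without the libraries labelled WT 0 h replicate 1 (adjusted p = 0.0741), WT 0 h replicate 2 (0.0574) or WT 2 h replicate 1 (0.153). The difference between the genotype labels in this change was 0.22 (95% interval 0.01 to 0.43), not called in edgeR (adjusted p = 0.37).

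Cdk6 was at 35.2 and 37.4 CPM in the pair labelled WT 0 h, 32.1 and 35.2 in KO 0 h, 20.3 and 23.9 in WT 2 h and 28.2 and 22.7 in KO 2 h. All 4 libraries labelled 2 h lay below all 4 labelled 0 h. Cdk6 fell by 0.72 on the log2 scale in WT (SE 0.12, edgeR adjusted p = 2.2e-05) and by 0.39 in KO (SE 0.12, adjusted p = 0.00769). The KO call was lost in edgeR without the library labelled KO 2 h replicate 2 (-0.23, adjusted p = 0.152) and with library size alone as the scaling (-0.24, adjusted p = 0.0944). Cdk4 reads per Cdk6 read ran from 12.3 to 14.8 at 0 h and from 15.7 to 21.2 at 2 h, and Cdk4 reads per Ccnd2 read from 0.952 to 1.17 and from 0.427 to 0.458.

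Of the inhibitors, the 2 with enough reads to be tested moved in opposite directions. Cdkn1b (chr6) encodes p27, which accumulates in quiescent fibroblasts and is controlled mainly through translation and Skp2-dependent turnover of the protein. Cdkn2c (chr4) encodes p18, the Ink4 protein whose gene is a known E2F target. Their promoter windows are shown because the genes moved oppositely. The first of the Cdkn2c entries is printed. Cdkn1b, at chr6:134920151-134920450 on the plus strand, holds 3 CCAAT boxes (CCAAT on either strand, in capitals), and Cdkn2c, at chr4:109666707-109667006 on the minus strand, holds 4 GC boxes (GGGCGG on either strand, in capitals).
Cdkn1b: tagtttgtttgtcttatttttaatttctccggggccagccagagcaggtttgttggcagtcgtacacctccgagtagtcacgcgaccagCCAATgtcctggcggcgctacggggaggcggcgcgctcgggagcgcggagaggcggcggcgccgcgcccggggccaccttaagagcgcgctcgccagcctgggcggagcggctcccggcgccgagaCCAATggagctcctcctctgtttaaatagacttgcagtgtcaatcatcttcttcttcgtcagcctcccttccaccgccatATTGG
Cdkn2c: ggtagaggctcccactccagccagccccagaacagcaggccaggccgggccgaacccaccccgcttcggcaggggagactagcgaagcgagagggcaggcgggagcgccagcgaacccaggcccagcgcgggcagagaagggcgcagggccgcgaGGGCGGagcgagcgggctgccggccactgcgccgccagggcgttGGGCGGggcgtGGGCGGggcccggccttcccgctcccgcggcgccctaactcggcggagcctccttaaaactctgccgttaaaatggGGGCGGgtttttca
At least 1 CCAAT box is found in 37.4% and at least 3 in 3.37% of all windows, and at least 1 GC box in 35.7% and at least 4 in 5.48%. In all, 7 of the 10 genes have a promoter entry in the RefSeq table. None of their windows holds the AP-1 motif TGANTCA (7.81% of all windows) or the interferon-stimulated response element (3.44%), searched on both strands. Neither Cdkn2c window holds an E2F match (TTTCGCGC, TTTGGCGC, TTTCCCGC or TTTGCCGC, in 2.27% of all windows). These absences say only that the letters are not in these windows. The boxes do not part the 2 genes: the Cdkn1b window also holds 1 GC box, and the other Cdkn2c entry (chr4:109665323-109665622, minus strand) holds 1 CCAAT box and 0 GC boxes.

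Cdkn1b was at 42.1 and 42.4 CPM in the pair labelled WT 0 h, 47.2 and 47.5 in KO 0 h, 73.6 and 74.1 in WT 2 h and 76.1 and 69.1 in KO 2 h. The 4 libraries labelled 2 h all lay well above the 4 labelled 0 h. The log2 fold change was 0.80 in WT (SE 0.09, edgeR adjusted p = 4.83e-08) and 0.62 in KO (SE 0.09, adjusted p = 2.47e-06). Cdkn1b was called in both under every alternative scaling, filter and library left out, and with DESeq2, but against a fold of 1.5 it was called in WT only.

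Cdkn2c was at 48.6 and 44.8 CPM in the pair labelled WT 0 h, 42.6 and 42.5 in KO 0 h, 26.3 and 25.3 in WT 2 h and 23.1 and 22.4 in KO 2 h. The groups labelled 0 h and 2 h were far apart compared with the spread within each. Cdkn2c fell by 0.85 on the log2 scale in WT (SE 0.10, edgeR adjusted p = 1.52e-07) and by 0.90 in KO (SE 0.10, adjusted p = 1.01e-07). Cdkn1b reads per Cdkn2c read went from 0.866 to 1.12 at 0 h up to 2.79 to 3.30 at 2 h, a 3.15-fold rise of the group mean in WT and a 2.87-fold rise in KO. Per length the order of the 2 inhibitors turned over: Cdkn1b stood at 0.534 and 0.656 of the Cdkn2c level at 0 h, and at 1.69 and 1.88 times that level at 2 h (WT, then KO).

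Cdkn2a and Cdkn2b, which lie side by side on chromosome 4, were all but without reads. Cdkn2a had 1 read, in the library labelled WT 2 h replicate 2, and Cdkn2b had 1 read in KO 0 h replicate 2 and 1 in WT 2 h replicate 1. All other libraries held 0 reads of both, which allows up to 3 reads, or 0.138 to 0.210 CPM depending on the library. These limits cover counting error only. The next protein-coding genes on the GRCm38 map framed them unequally. Mtap, the methylthioadenosine phosphorylase gene on one side, had 9086 to 12921 reads per library (580 to 637 CPM) and was not called in any comparison. Dmrta1 on the other side had 1 read in all. NIH3T3 cells are known to have lost the Ink4a/Arf locus, and these counts alone do not tell a lost gene from a silent one.

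**Figure D3:**
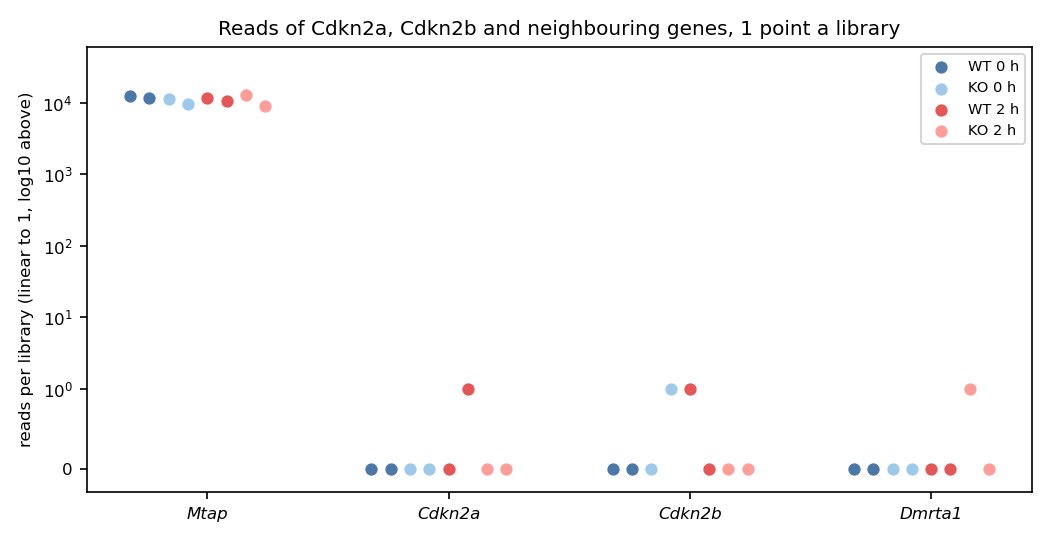
Reads per library of Mtap, Cdkn2a, Cdkn2b and Dmrta1, placed in map order, 1 point per library, on an axis that is linear to 1 read and log10 above. Mtap lies at 9086 to 12921 reads, and no other gene exceeds 1 read in any library.

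Rb1 encodes the retinoblastoma protein, which these cyclins and kinases inactivate. It was at 22.1 and 22.1 CPM in the pair labelled WT 0 h, 23.7 and 29.7 in KO 0 h, 36.4 and 36.0 in WT 2 h and 37.2 and 30.7 in KO 2 h. All 4 libraries labelled 2 h lay above the 4 labelled 0 h, but KO 0 h replicate 2 and KO 2 h replicate 2 differed by little. The log2 fold change was 0.71 in WT (SE 0.12, edgeR adjusted p = 2.47e-05) and 0.36 in KO (SE 0.12, adjusted p = 0.0146). The KO call was lost in edgeR without KO 0 h replicate 1 (0.23, adjusted p = 0.162) or KO 2 h replicate 1 (0.23, adjusted p = 0.181). Per kilobase Rb1 was at 4.75 to 7.77 CPM over the groups, above Cdk6 and below Cdkn1b and Cdkn2c.

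The groups labelled KO and WT were then compared at each time, the contrast the labels describe as the effect of the knockout. At 0 h none of the 8 genes was called by edgeR or DESeq2, where 3.92% of all genes were called by edgeR. An unadjusted p below 0.05 was found for 3 of the 8 (20.4% of all genes). In edgeR they were Ccnd3 (-0.29, adjusted p = 0.096), Cdk4 (-0.21, adjusted p = 0.101) and Rb1 (0.27, adjusted p = 0.222). For Rb1 the value ran from 0.094 to 0.39 when 1 library was left out, the lowest without KO 0 h replicate 2. Groups did not overlap for 6 of the 8, against 51.5% of all genes. Ccnd3 was called in edgeR with no filter on low counts (-0.31, adjusted p = 0.0324), and without KO 0 h replicate 1 both Ccnd3 (-0.38, adjusted p = 0.0382) and Cdk4 (-0.29, adjusted p = 0.0261) were called.

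At 2 h none of the 8 was called by edgeR or DESeq2, none had an unadjusted p below 0.05 in edgeR, and log2 differences ran from -0.18 (Cdkn2c) to 0.21 (Cdk6). Over all genes 1.6% were called and 5.19% had an unadjusted p below 0.05. Groups did not overlap for 2 of the 8, against 29.7% of all genes. The 95% intervals were narrowest for Ccnd2 (-0.08 to 0.21), Cdk4 (-0.13 to 0.16) and Ccnd1 (-0.15 to 0.16), and widest for Cdk6 (-0.05 to 0.47). Ifit1 differed by 7.10 on the log2 scale between the same groups (edgeR adjusted p = 1.82e-15).

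For the interaction, the KO change from 0 h to 2 h minus the WT change, none of the 8 was called by edgeR or DESeq2 (0.133% of all genes were called by edgeR). In edgeR 2 of 8 had an unadjusted p below 0.05 (12.8% of all genes), Ccnd3 and Cdk4, given above. The estimates for Rb1 (-0.35, interval -0.71 to 0.0015) and Cdk6 (0.32, interval -0.03 to 0.68) had intervals that held 0. Both estimates moved when single libraries were left out. Rb1 was at -0.51 without KO 2 h replicate 1 and at -0.18 without KO 0 h replicate 2. Cdk6 was at 0.14 without KO 2 h replicate 1 and at 0.45 without KO 2 h replicate 2. Ccnd2 (0.02, interval -0.19 to 0.23) and Cdkn2c (-0.05, interval -0.35 to 0.25) came with estimates near 0.

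**Figure D4:**
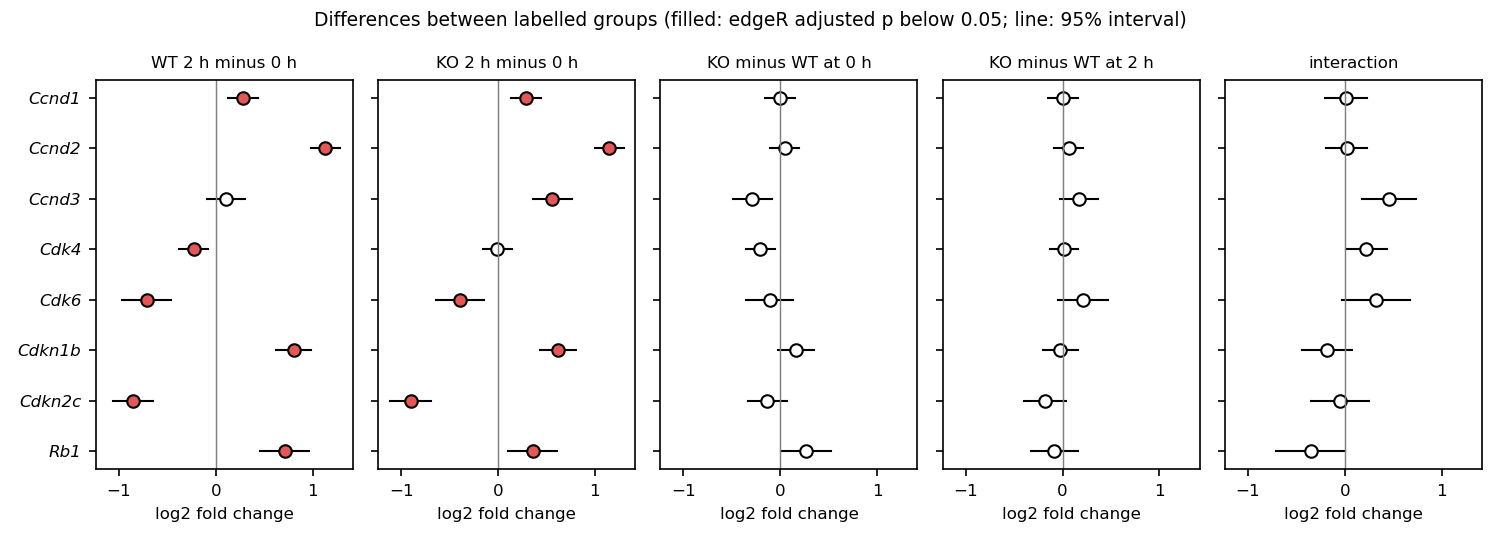
Log2 fold change of each tested gene in the edgeR comparisons, with 95% intervals, 1 panel per comparison and filled points for genes called. In the 2 h minus 0 h comparisons Ccnd2 lies near 1.13 to 1.15 and Cdkn2c near -0.85 to -0.90, while the KO minus WT estimates lie between -0.29 and 0.27.

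Only the groups labelled WT 0 h and KO 2 h had Zmynd11 at the level their genotype label names. This contrast was added after the data had been seen, and it shares its libraries with the comparisons above. By their labels these groups differ in IFNβ treatment as well as in genotype. Mean Ifit1 was 1.30 CPM in WT 0 h and 388 CPM in KO 2 h. The contrast cannot part genotype from treatment, and the share of each in the changes below was not tested. In edgeR 8 of 8 genes were called (5 higher, 3 lower), beside 62.3% of all genes (30.8% higher, 31.4% lower). The log2 fold changes were 1.19 for Ccnd2, 0.78 for Cdkn1b, 0.63 for Rb1, 0.29 for Ccnd1, 0.27 for Ccnd3 (adjusted p = 0.0168), -0.21 for Cdk4 (adjusted p = 0.0131), -0.50 for Cdk6 and -1.04 for Cdkn2c.

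The genes that act around the switch were counted by role, in lists of 40 genes of which 38 were tested. Most of those called were lower with the 2 h label. In edgeR 7 were called higher and 21 lower in WT, and 5 higher and 22 lower in KO. Of all genes 61.2% were called in WT (30.1% higher, 31.1% lower) and 61.1% in KO (30% higher, 31.2% lower). The median log2 fold change of the 38 genes was -0.37 and -0.31, beside 0.01 and -0.01 over all genes. With library size alone the counts were 10 higher and 18 lower in WT and 7 and 17 in KO, and no called gene changed direction.

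The later cyclins and Cdk, listed together with Cdc25a, were lower throughout, 5 of 5 in both genotype labels (31.1% and 31.2% of all genes). Ccna2 (cyclin A2, needed for S phase and mitosis) went from 245 to 61.2 CPM in WT (-2.00) and from 242 to 66.4 CPM in KO (-1.86). Ccne2 (cyclin E2) fell by 0.90 and 1.54 on the log2 scale, Ccne1 by 0.65 and 0.65, and Cdk2, the partner of both cyclins, by 0.62 and 0.46. Among E2F and DP factors 8 of 9 were lower in WT and 7 of 9 in KO (31.1% and 31.2% of all genes), among them E2f8 (-0.97 and -0.93), E2f7 (-0.83 and -0.87) and the DP gene Tfdp1 (-0.81 and -0.95). Tfdp2 alone was higher (0.87 and 0.88), and E2f2 missed the threshold in KO (edgeR adjusted p = 0.0716). With library size alone as the scaling 6 of 9 were lower in WT, without E2f2 and E2f3, and 4 of 9 in KO, without E2f1, E2f3 and E2f4. DESeq2 also lost E2f1 in KO.

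Among genes for the turnover of G1 proteins, Skp2, which marks p27 for destruction, fell by 1.94 in WT and 1.85 in KO on the log2 scale. Its cofactor gene Cks1b fell by 0.86 and 0.93, and Fbxo31 by 0.70 and 1.10. Ambra1, whose product targets D-type cyclins for destruction, was higher (0.23 and 0.39). In all, 3 of 6 were lower and 1 higher in WT, and 4 lower and 1 higher in KO. These and the counts that follow stand beside 30.1% of all genes called higher and 31.1% lower in WT, and 30% and 31.2% in KO. The DREAM complex represses cell-cycle genes in quiescence, and its core leaves it to bind Mybl2 when cells cycle. Of the core genes and Mybl2, listed together, 3 of 6 were lower in both. They were Mybl2 (-1.66 and -1.76), Lin9 (-0.50 and -0.86) and Lin54 (-0.30 and -0.52). The core gene Lin37 was called higher in WT (0.62, edgeR adjusted p = 0.00256) and was at 0.35 in KO (adjusted p = 0.0891). The pocket protein genes related to Rb1 parted: Rbl1 (p107) was lower (-0.66 and -0.68), and Rbl2 (p130) was higher (0.39 and 0.30). Cdkn1a (p21) was higher, at 238 and 242 CPM at 0 h against 365 and 404 CPM at 2 h (WT and KO; 0.62 and 0.74), while Cdkn1c had 14 reads in all and was not tested. Of the kinase that activates Cdks, 1 of 3 genes was called in both, Ccnh (0.40 and 0.30), a share below that of all genes (61.2% and 61.1%). Of the regulators of the Cdkn2a locus, 2 of 5 were called in each genotype label, again below the share of all genes. Dmtf1, which activates Arf, was called higher in WT (0.29) and the Polycomb gene Bmi1 lower in KO (-0.26), while Ezh2 and Twist1 were called in neither. The Polycomb gene Cbx7 was lower in both: it had 56 to 74 reads per library at 0 h and 0 to 12 at 2 h, a log2 fold change of -3.66 (SE 0.56) in WT and -3.50 (SE 0.55) in KO. With library size alone Cdk7, Rbbp4 and Ezh2 were also called higher in WT and Lin37 and Cdkn2d in KO. Cdkn2d had only 2 to 14 reads per library. In edgeR with TMM scaling it was at -0.45 in WT and 1.97 in KO, called in neither. Lin54 (WT), Fbxo4 and Bmi1 (KO) lost their calls with library size alone, and DESeq2 also lost Fbxo4 in KO.

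**Figure D5:**
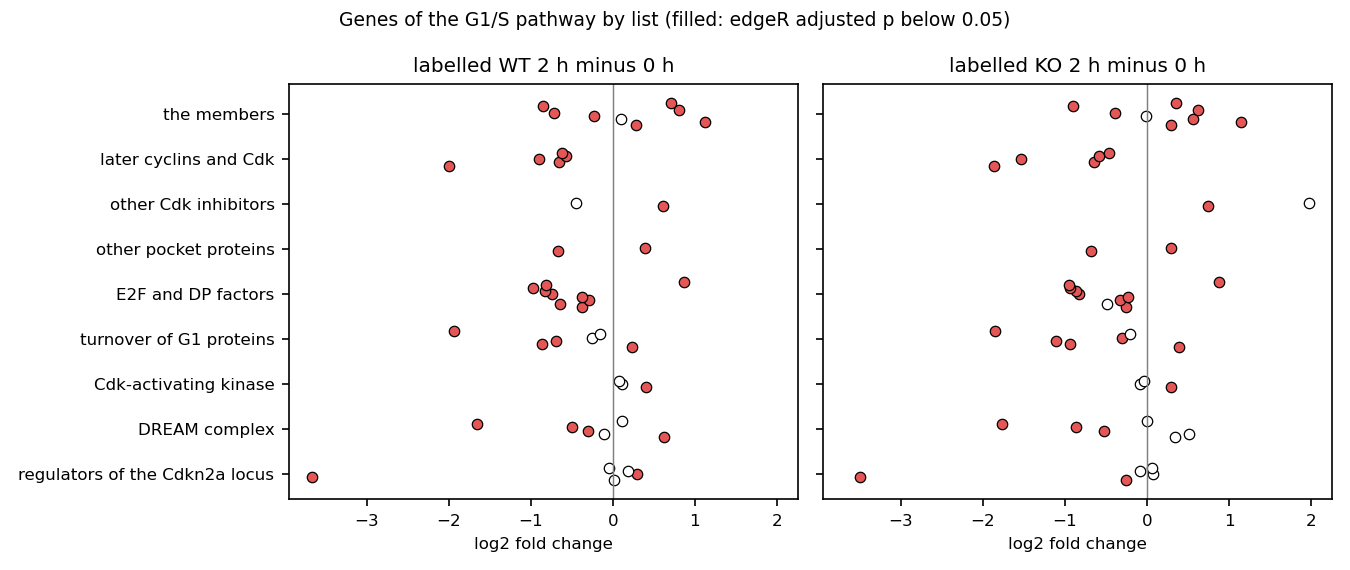
Log2 fold changes from 0 h to 2 h of the other genes of the pathway by list, 1 point per gene, for the groups labelled WT and KO. The later cyclins and Cdk, a list that also holds Cdc25a, all lie below 0. Most E2F and DP genes do too, with Tfdp2 near 0.87 and 0.88.

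Between the labelled genotypes and in the interaction, none of these 38 genes was called by edgeR or DESeq2, beside 3.92% (0 h), 1.6% (2 h) and 0.133% (interaction) of all genes in edgeR. An unadjusted p below 0.05 was found in edgeR for 4, 2 and 5 of them, beside 20.4%, 5.19% and 12.8% of all genes.

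The genes with the most similar pattern were sought for Ccnd2, Cdkn2c and Cdkn1b, the 3 with the widest range of group means. Likeness was the root mean square difference of centred log2 CPM over the 8 libraries, among 8986 genes. Nearest to Ccnd2 were Itpripl2 (0.0242) and Cttnbp2nl (0.0436), nearest to Cdkn2c were Cdca4 (0.050) and Chsy1 (0.0517), and nearest to Cdkn1b were Lmbrd1 (0.050) and Kif3b (0.0506). Itpripl2, for example, stood at 252 and 263 CPM in the groups labelled WT 0 h and KO 0 h and at 543 and 567 CPM in those labelled WT 2 h and KO 2 h.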

How the data were processed

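The deposited tables hold raw counts, 1 whole number of reads for each gene symbol and library. The submitters' processing notes name bcl2fastq 2.15, STAR 2.5.2b, HTSeq and mm9, their roles, the annotation and strandedness being not given in the sources used here. Without strand, overlapping and antisense genes cannot be told apart. The 4 summary lines (36.9 to 43.2% of reads) name no gene and were left out. A single read was worth 0.0460 to 0.0700 CPM.

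All genes were fitted at once with edgeR 4.0.16 in R 4.3.3 (robust quasi-likelihood test, TMM scaling, filterByExpr at its minimum count, 10, and minimum total, 15). This kept 12807 genes and left 4 residual degrees of freedom, with a biological coefficient of variation of 6.74%. The 5 comparisons were adjusted by Benjamini-Hochberg over all tested genes and called below 0.05. Replicate libraries differed by more than sampling noise. Groups come from the labels. The 10 genes, the lists and the markers were chosen with earlier results of these data known. Named were the 10 genes, Zmynd11, Ifit1, the neighbours of Cdkn2a and Cdkn2b, the genes nearest in pattern and up to 4 called genes per list, ranked by size of change; other markers and list genes (such as Des, Fn1, E2f2 and Cdkn1c) were named besides, after their values were seen. Lengths (GENCODE exon unions) and RefSeq promoters are of GRCm38, not the counting build. Alternatives were RLE factors, library size alone, no filter, a 1 CPM filter, DESeq2 1.42.0, fits of only the libraries compared, the replicate block, testing against 1.5-fold, and omission of each library in turn. A run on simulated counts, in which few genes changed and as many rose as fell, checked that the code finds planted changes. It cannot test the scaling where most genes are called, as between the labelled times.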

Additional observations from a re-analysis of the deposited data

How the results depend on the processing

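With 2 libraries a group, small changes are at the limit of these data. No called change of the 8 genes turned its direction under any alternative; with 1 library left out, calls were kept 105 times and lost 7 times, and under the other alternatives they were kept 101 times and lost 11 times. Ccnd2 and Cdkn2c kept their calls in both 2 h minus 0 h comparisons under all alternatives run. Library size alone moved the median of all genes by 0.14 (WT) and 0.15 (KO) on the log2 scale. The number of the 8 genes called was 5 to 7 (WT, 2 h minus 0 h), 6 to 7 (KO) and 0 to 2 (KO minus WT at 0 h) when 1 library was left out; without KO 0 h replicate 2 the counts were 7, 7 and 0. It was 1 for KO minus WT at 0 h with no filter, and 3 (WT) and 2 (KO) against a fold of 1.5, a stricter test by construction. With the replicate block the counts stayed 7, 7, 0, 0 and 0. The replicate numbers gave no sign of pairing over all genes, where the correlations of deviations over 6 pairs were -0.073 to 0.013. A pairing that touches few genes would not show in them.

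Over all genes, the count for KO minus WT at 0 h went from 502 to 809 (no filter), 322 (replicate block), 110 (fold of 1.5) and 174 to 1073 (1 library left out). The interaction went from 17 to 33 (DESeq2), 113 (no filter), 5 (fold of 1.5) and 6 to 91 (1 library left out). A fold of 1.5 left 2939 (WT), 3012 (KO) and 111 (KO minus WT at 2 h, from 205). The cause was not tested.

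Values near 0 that were not called changed sign. For Cdk4 in KO (2 h minus 0 h) they were 0.0088 (RLE), 0.14 (library size alone), 0.0087 (DESeq2), 0.018 (4 libraries) and -0.050 to 0.067 (1 library left out). For Ccnd1 they were -0.0055 (library size alone), -0.0047 (no filter) and -0.079 to 0.070 (1 library left out) in KO minus WT at 2 h, and 0.0011 (1 CPM filter), 0.0064 (4 libraries) and -0.087 to 0.029 (1 library left out) at 0 h. With 1 library left out, KO minus WT ranged from -0.027 to 0.068 for Ccnd2 at 0 h, and at 2 h from -0.032 to 0.042 (Cdk4), -0.11 to 0.034 (Cdkn1b) and -0.25 to 0.029 (Rb1). The interaction ranged from -0.085 to 0.033 (Cdkn2c), -0.074 to 0.094 (Ccnd1) and -0.022 to 0.090 (Ccnd2).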
